A study of Mus musculus with 5 samples.

Results

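Macrophage and monocyte genes were read in 5 bead-array samples of marrow erythroblasts, which still hold a nucleus on their way to becoming red cells. The group was given as 10 gene names, Lyz1, Lyz2, Adgre1, Csf1r, Vcam1, C1qa, C1qb, Cd68, Ctss and Mpeg1, and every array probe whose platform gene symbol is one of them was taken. Of these, 9 genes had a listed probe, 20 probes in all, among 19057 genes named on the array, and Cd68 was not analysed here. All samples are total RNA from C57BL/6J mouse marrow, with the genotype given as Flvcr deleted for 2 and wild type for 3, and the cell type as erythroblast for each. Flvcr, now Flvcr1, is known as a surface protein that exports heme. The labels give neither the way the gene was deleted nor the cells it was deleted in, nor the age of the mice. Whether each replicate is its own animal is not said either, so a p-value covers the scatter of these 5 samples alone, and that scatter may be technical.

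In marrow, erythroblasts mature in clusters around a central macrophage, the erythroblastic island. The macrophage holds them through adhesion molecules such as VCAM1, which binds an integrin on the erythroblast, engulfs the nuclei they expel and recycles iron from spent red cells. Monocytes are the circulating precursors of many macrophages and share with them the receptor for colony stimulating factor 1 and the lysosomal enzymes. The labels set erythroblast samples called Flvcr deleted against others called wild type, and these genes are known mainly from neighbouring cells of the marrow.

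Values are log2 signals as deposited, in which background lies near 6.70 and a probe was counted above background over a floor of 6.83. Across all 10076 genes tested with limma (1 probe a gene, the brightest of those above the floor on at least 2 arrays), 39.3% passed an adjusted p under 0.05, 17.5% lower and 21.8% higher on the Flvcr-deleted-labelled arrays, and the median log2 difference was 0.01. For the deleted gene itself, the brighter Flvcr1 probe gave 9.88 and 9.75 on the Flvcr-deleted-labelled arrays, against 8.16, 8.32 and 8.25 on the wild-type-labelled arrays. The signal of this probe was thus higher under the label of deletion. The other Flvcr1 probe lay below the floor on all 5 arrays. No source used here places either probe relative to the deleted part, and every direction rests on the labels. Among erythroblast markers, 8 of the 9 with a probe were above the floor on all 5 arrays and Epb42 was not tested, and 5 of the 8 were lower on the Flvcr-deleted-labelled arrays (median log2 difference -0.71). The 5 were Epor (-1.22), Alas2 (-0.91), Klf1 (-0.79), Tfrc (-0.76) and Gata1 (-0.66). Hba-a1 (-0.11), Hbb-bt (-0.02) and Slc4a1 (0.03) did not pass.

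Both lysozyme genes were lower on the Flvcr-deleted-labelled arrays, and none of the other 7 members passed the test. The count of 2 lower and 0 higher of 9 members stands beside the 17.5% and 21.8% of all genes, so the share of members called lower was close to the background. All 9 differences were negative, with a median of -0.37, but not all were distinct from 0. Those of Ctss (-0.03, SE 0.10) and Adgre1 (-0.04, SE 0.11) were smaller than their SE, and each turned positive in a fit without an array. Csf1r (-0.16, SE 0.11) also lay near the floor. Over all kept probes, 35.3% passed, and of 12 member probes above the floor on at least 2 arrays the same 2 passed. The count depended on which arrays entered: without wild-type replicate 3, 6 members were lower, and without Flvcr-deleted replicate 1, 3 were. In bulk RNA, fewer cells of a type and less RNA per cell cannot be told apart.

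**Figure D1:**
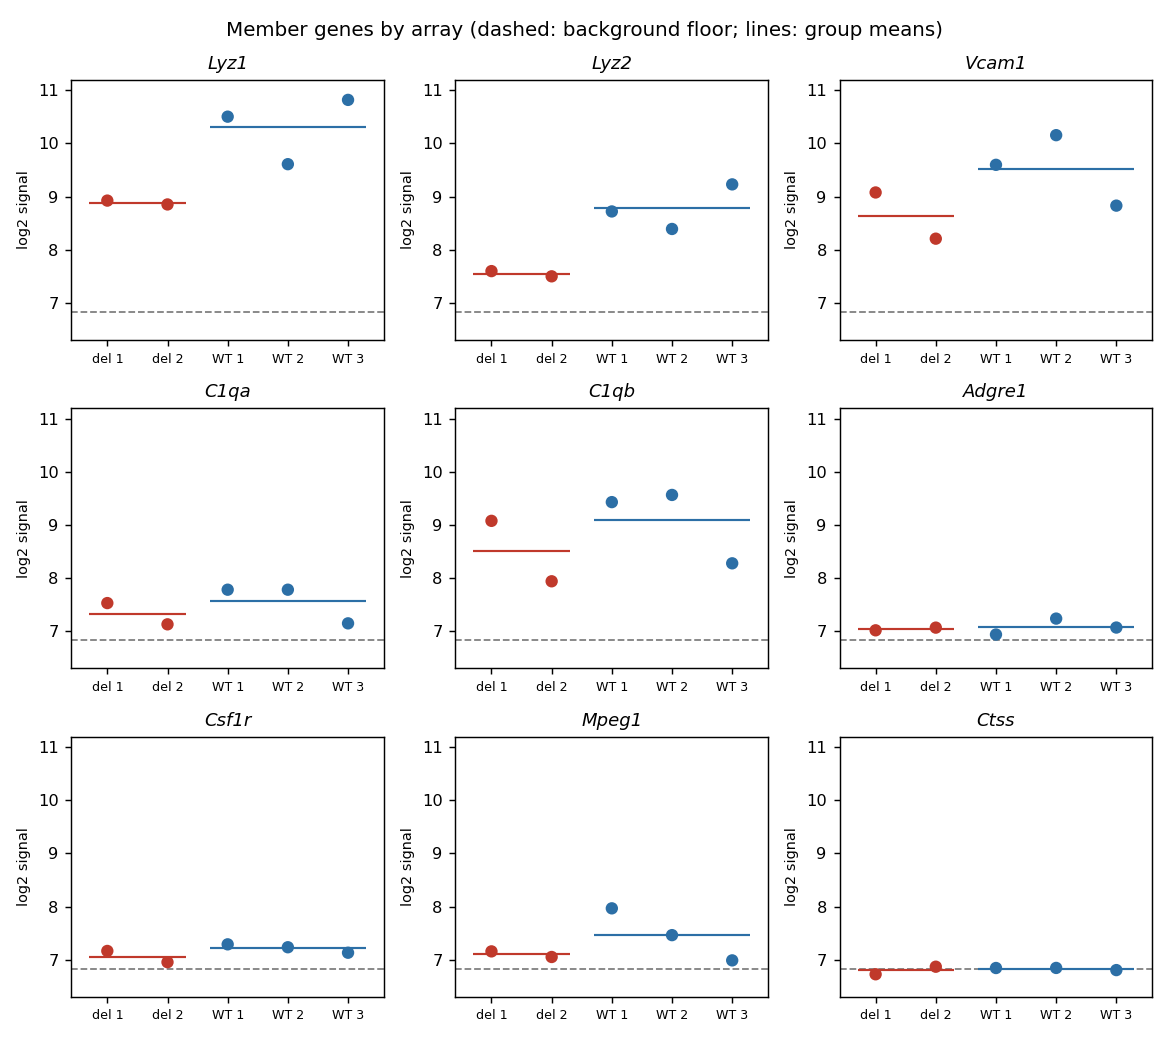
Log2 signal (vertical axes) of the brightest probe of each member on every array (horizontal axes, del for labelled Flvcr-deleted in red, WT for labelled wild-type in blue), with group means as lines and the background floor of 6.83 dashed. The red points of Lyz1 and Lyz2 lie below all blue points, those of Vcam1, C1qa and C1qb overlap with the low wild-type replicate 3, and those of Ctss lie at the floor.

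Lysozyme cleaves the cell wall of bacteria. In the mouse Lyz2 encodes the M-type enzyme of macrophages, monocytes and neutrophils, and its neighbour Lyz1 the P-type enzyme, best known from Paneth cells of the gut. Lyz1 read 8.92 and 8.85 on the Flvcr-deleted-labelled arrays, against 10.50, 9.61 and 10.82 on the wild-type-labelled arrays. The groups did not overlap, and the wild-type arrays were spread over more than a log2 unit while the other pair nearly coincided. For lower signals on the Flvcr-deleted-labelled arrays without overlap, the background was 26.8% of all genes. Lyz1 averaged 8.89 ± 0.05 (SD, n = 2) under the label of deletion and 10.31 ± 0.63 (SD, n = 3) in wild type, so the log2 difference was -1.42 (SE 0.29) or 2.68-fold lower (limma, adjusted p = 0.00418).

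Lyz2 read 7.60 and 7.50 on the Flvcr-deleted-labelled arrays, against 8.72, 8.39 and 9.23 on the wild-type-labelled arrays. Again the groups were separate, with wild-type replicate 3 highest and replicate 2 lowest of its group, as for Lyz1. It averaged 7.55 ± 0.07 (SD, n = 2) under the label of deletion and 8.78 ± 0.42 (SD, n = 3) in wild type, a difference of -1.23 (SE 0.21) or 2.35-fold lower (limma, adjusted p = 0.00153). Both calls held under each alternative tried, with adjusted p up to 0.0315 for Lyz1 and 0.0121 for Lyz2, each without wild-type replicate 1.

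The remaining lysozyme probes gave little signal. A further Lyz2 probe read 6.96 and 7.07 on the Flvcr-deleted-labelled arrays, against 7.44, 6.94 and 7.45 on the wild-type-labelled arrays, a difference of -0.26 (SE 0.16) that did not pass (limma over all kept probes, adjusted p = 0.246). With the mean of the kept Lyz2 probes the difference was -0.75 and still passed. The other 2 Lyz1 probes and the other Lyz2 probe lay below the floor on all 5 arrays. Transcripts of the 2 genes are closely alike, and whether the bright Lyz1 probe also reads Lyz2 transcripts was not tested, since probe sequences were not used here.

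Promoters of 3 members are printed, as the 250 bases before the start in RefSeq (GRCm38.p6), Lyz1 and Lyz2 as the called pair and C1qb as a member with another order of arrays. All are printed 5′ to 3′ on the gene's own strand, with the letters ACTTCCT, or AGGAAGT on the other strand, in capitals. This string is one form of the sites that ETS factors such as PU.1 of myeloid cells are known to bind, and it was chosen after the sequences were seen. Shorter or other forms were not searched.
Lyz1 (chr10:117292869-117293118, minus strand): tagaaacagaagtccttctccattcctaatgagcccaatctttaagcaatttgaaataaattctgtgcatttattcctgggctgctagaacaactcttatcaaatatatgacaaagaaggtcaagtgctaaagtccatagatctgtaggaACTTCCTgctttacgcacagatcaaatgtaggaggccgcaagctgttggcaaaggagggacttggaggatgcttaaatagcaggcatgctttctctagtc
Lyz2 (chr10:117282273-117282522, minus strand): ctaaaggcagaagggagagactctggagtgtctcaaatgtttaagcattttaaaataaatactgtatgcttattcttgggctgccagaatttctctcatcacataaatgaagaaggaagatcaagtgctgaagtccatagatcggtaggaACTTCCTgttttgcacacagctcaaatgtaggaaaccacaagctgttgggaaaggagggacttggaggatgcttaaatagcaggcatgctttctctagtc
C1qb (chr4:136886201-136886450, minus strand): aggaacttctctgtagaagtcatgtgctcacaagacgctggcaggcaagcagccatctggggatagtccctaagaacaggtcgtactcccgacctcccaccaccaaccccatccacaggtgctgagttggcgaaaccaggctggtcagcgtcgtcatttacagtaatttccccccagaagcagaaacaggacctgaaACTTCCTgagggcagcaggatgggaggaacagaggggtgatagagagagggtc
Set side by side without gaps, the Lyz1 and Lyz2 windows had the same base at 152 of 250 positions (60.8%) and at 71 of the 75 nearest the start. In both the string began 100 bases before the start, and in C1qb 53 bases before it. It occurred in 3 of the 6 member windows in the table (Lyz1, Lyz2 and C1qb, not Cd68, Ctss or Mpeg1) and in 7.69% of 32851 windows of all genes. Since the string was chosen after the sequences were seen, these shares do not measure how unusual the members are. The alike Lyz1 and Lyz2 windows are also not separate cases. A match is a description of the letters only.

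Vcam1, the island macrophage's ligand for erythroblast integrin, varied widely within each label. It read 9.08 and 8.21 on the Flvcr-deleted-labelled arrays, against 9.60, 10.16 and 8.83 on the wild-type-labelled arrays. The higher array labelled Flvcr-deleted lay above the lowest wild-type array, so the groups overlapped. Vcam1 averaged 8.64 ± 0.62 (SD, n = 2) under the label of deletion and 9.53 ± 0.67 (SD, n = 3) in wild type, a difference of -0.89 (SE 0.36, 95% interval -1.71 to -0.06) that did not pass after adjustment over all genes (limma, adjusted p = 0.0859, unadjusted p = 0.0377). This was the member whose call turned most on the settings: it passed without wild-type replicate 3 (difference -1.24, adjusted p = 0.00809), without Flvcr-deleted replicate 1 (difference -1.32, 0.0308), with normexp background correction (0.0357) and with an intensity trend (0.0254). Without Flvcr-deleted replicate 2 the difference was -0.45. Over the alternatives that kept both Flvcr-deleted arrays, the adjusted p ran from 4.11e-04 to 0.220 (limma). The lowest came with the replicate number as a block, where it also passed, and the highest without wild-type replicate 1. The 3 other Vcam1 probes were below the floor on every array.

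C1qa and C1qb encode chains of C1q, the recognition part of the complement system, which tissue macrophages secrete. C1qb read 9.08 and 7.94 on the Flvcr-deleted-labelled arrays, against 9.43, 9.57 and 8.28 on the wild-type-labelled arrays. Each label thus held at least 1 high and 1 low array, more than a log2 unit apart. C1qb averaged 8.51 ± 0.80 (SD, n = 2) under the label of deletion and 9.09 ± 0.71 (SD, n = 3) in wild type, a difference of -0.58 (SE 0.41, 95% interval -1.51 to 0.35, limma, adjusted p = 0.315). C1qa read 7.53 and 7.13 on the Flvcr-deleted-labelled arrays, against 7.78, 7.78 and 7.15 on the wild-type-labelled arrays, the same arrays being low. It differed by -0.24 (SE 0.20, 95% interval -0.71 to 0.23, adjusted p = 0.414). Without wild-type replicate 3 both passed, C1qb at -0.99 (adjusted p = 0.0323) and C1qa at -0.45 (0.0377), and without Flvcr-deleted replicate 2 the differences shrank to -0.01 (0.987) and -0.04 (0.932). Over all alternatives the adjusted p ran from 0.00127 to 0.987 for C1qb and from 0.0113 to 0.932 for C1qa (limma).

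Mpeg1, a pore-forming protein that macrophages turn on engulfed bacteria, read 7.16 and 7.05 on the Flvcr-deleted-labelled arrays, against 7.97, 7.46 and 6.99 on the wild-type-labelled arrays. Wild-type replicate 3 again lay lowest, here below both arrays of the other label. The difference was -0.37 (SE 0.24, 95% interval -0.90 to 0.17, limma, adjusted p = 0.266), and -0.61 without wild-type replicate 3, where it passed (adjusted p = 0.0191, range over all alternatives 0.00143 to 0.663). Without wild-type replicate 1 it shrank to -0.12. Its other probe was below the floor on all arrays.

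The surface receptors that define macrophages and monocytes, and cathepsin S, stayed near background. Adgre1, the classical surface antigen of mature mouse macrophages, read 7.02 and 7.07 on the Flvcr-deleted-labelled arrays, against 6.94, 7.24 and 7.07 on the wild-type-labelled arrays (difference -0.04, SE 0.11, 95% interval -0.30 to 0.22). A further Adgre1 probe differed by -0.12 (SE 0.12), and the remaining one was above the floor on 1 array. Csf1r, the receptor for colony stimulating factor 1, read 7.16 and 6.95 on the Flvcr-deleted-labelled arrays, against 7.29, 7.23 and 7.13 on the wild-type-labelled arrays (difference -0.16, SE 0.11, 95% interval -0.41 to 0.09). Its other probe differed by 0.01 (SE 0.13) and was above the floor on 3 arrays. Ctss, a lysosomal protease of antigen-presenting cells, read 6.72 and 6.87 on the Flvcr-deleted-labelled arrays, against 6.84, 6.84 and 6.80 on the wild-type-labelled arrays, with 3 arrays above the floor (difference -0.03, SE 0.10, 95% interval -0.25 to 0.19). The adjusted p-values were 0.836, 0.299 and 0.833 (limma), and at signals this near the floor a change of the transcript is understated.

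**Figure D2:**
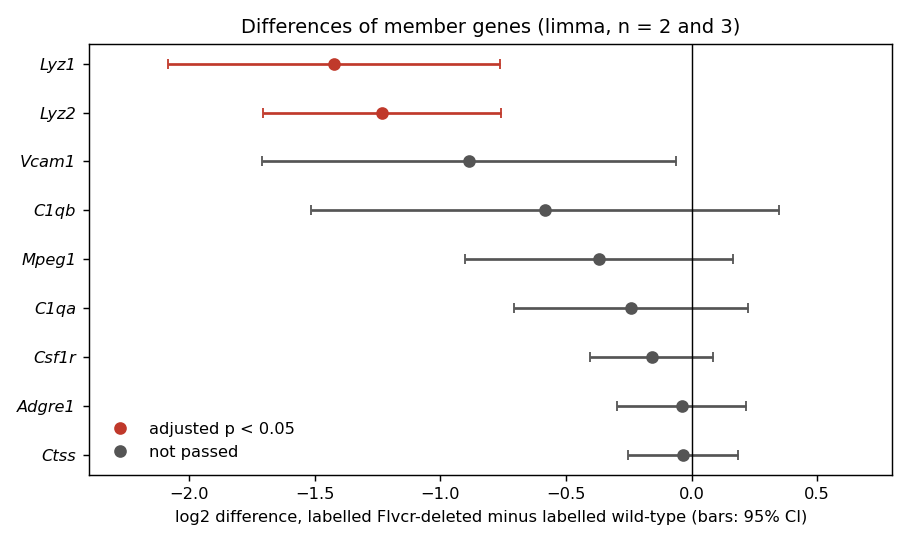
Log2 difference, labelled Flvcr-deleted minus labelled wild-type (horizontal axis), of the 9 members with their 95% intervals from limma, red where the adjusted p was under 0.05. Lyz1 (-1.42) and Lyz2 (-1.23) passed, Vcam1 and C1qb had the widest intervals, and Ctss, Adgre1 and Csf1r lay close to 0.

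The members fell into separate orders of the arrays. Of the 7 members other than the lysozymes, 4 (Vcam1, C1qa, C1qb and Mpeg1) read lower in wild-type replicate 3 by at least 0.5. The comparison was with the mean of wild-type replicates 1 and 2. Such a gap was found in 1.32% of all genes tested. The gaps of those 4 were -1.05, -0.63, -1.22 and -0.73. For Adgre1, Csf1r and Ctss, with signals near the floor, the gaps were only -0.02, -0.13 and -0.04. Between the arrays labelled Flvcr-deleted, replicate 2 was lower than replicate 1 by 0.5 or more for Vcam1 (-0.87) and C1qb (-1.14), against 1.31% of all genes. Both gaps together were seen in 20 genes, 0.198% of those tested. These are differences between replicates of a label, given without a test. Neither the arrays compared nor the cut of 0.5 was set in advance. The shares of all genes, here and for the lysozymes below, thus do not measure how unusual these members are.

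Lyz1 and Lyz2 did the reverse in the wild-type arrays. Wild-type replicate 3 exceeded the mean of the other two by 0.76 for Lyz1 and by 0.67 for Lyz2, a gap of at least 0.5 that 1.03% of all genes had. Between the arrays labelled Flvcr-deleted the lysozymes differed by only -0.07 and -0.10. Root mean square differences over the 5 arrays, after each gene was centred on its own mean, were 0.20 between Lyz1 and Lyz2 and 0.23 between Vcam1 and C1qb. They were 0.75 to 0.96 between a lysozyme and either of the other two.

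**Figure D3:**
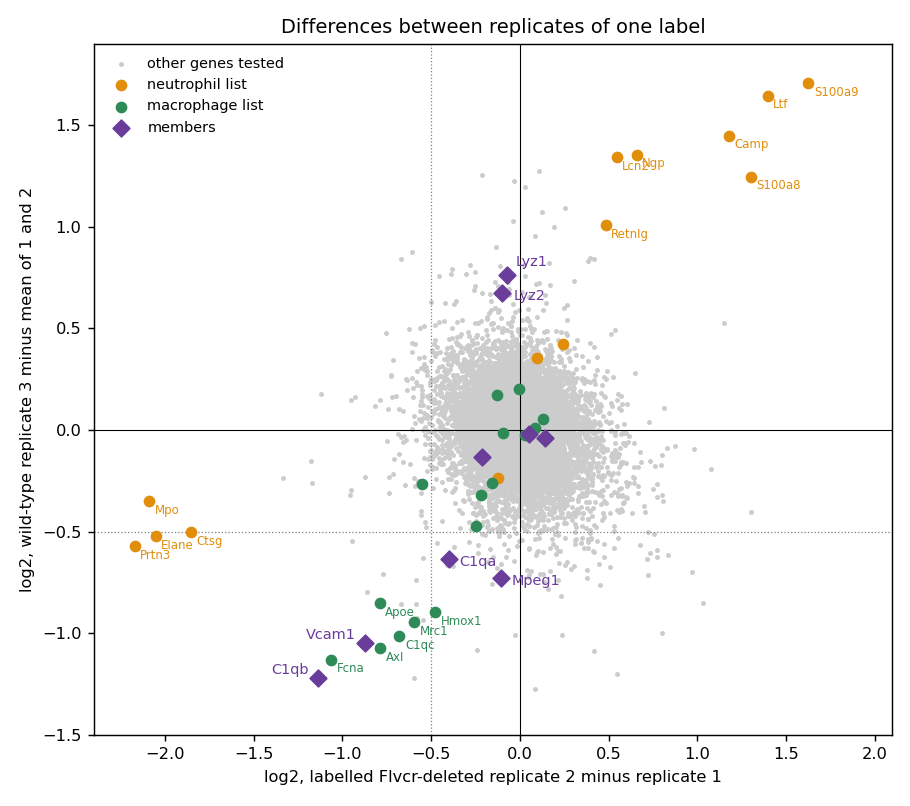
Difference between the replicates labelled Flvcr-deleted (horizontal axis, replicate 2 minus 1, log2) against that between wild-type replicates (vertical axis, replicate 3 minus the mean of 1 and 2, log2) for all genes tested, with members, macrophage and neutrophil lists coloured and dotted lines at -0.5. C1qb and Vcam1 lie at the lower left among Fcna, Axl, C1qc, Mrc1 and Apoe, while Lyz1 and Lyz2 lie above the centre. Late neutrophil genes such as S100a9 lie at the upper right and the early granule genes Mpo, Elane, Prtn3 and Ctsg at the lower left.

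By likeness of these centred values, the genes nearest to Vcam1 were Axl (0.14), Cfp (0.17), Mrc1 (0.18), Fcgrt (0.21) and C1qb (0.23). Axl is a receptor through which macrophages take up dying cells, Cfp is properdin of the complement system, Mrc1 the mannose receptor and Fcgrt the neonatal Fc receptor. Nearest to C1qb were Axl (0.17), Mrc1 (0.21), C1qc (0.21), Fcgrt (0.21) and the syndecan Sdc3 (0.22). Axl read 9.23 and 8.45 on the Flvcr-deleted-labelled arrays, against 9.97, 10.09 and 8.96 on the wild-type-labelled arrays, the same high and low arrays as Vcam1. Of the 20 genes with both gaps, 2 are members (Vcam1 and C1qb), 5 are of the macrophage list (Fcna, Axl, C1qc, Mrc1 and Apoe), 3 of the neutrophil list (Elane, Prtn3 and Ctsg) and 10 of no list. The last were Cfp, Fcgrt, Sdc3, Anxa3, Itgad, Lpl, Nkg7, Pla2g15, Slco2b1 and Top2a.

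The lysozymes had other neighbours. Nearest to Lyz2 were the histone genes H4c11 (0.07), H2bc7 (0.08), H2bc12 (0.08), H4c12 (0.09) and H2bc6 (0.09), and nearest to Lyz1 were H2bc15 (0.14), H2bc11 (0.15), H2bc12 (0.15), H2bc21 (0.16) and H4c12 (0.17). These encode core histones H2B and H4. H2bc12 read 8.85 and 8.76 on the Flvcr-deleted-labelled arrays, against 10.18, 9.74 and 10.65 on the wild-type-labelled arrays, with the 5 arrays in the order seen for Lyz1. Likeness over 5 arrays is a description of these values.

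**Figure D4:**
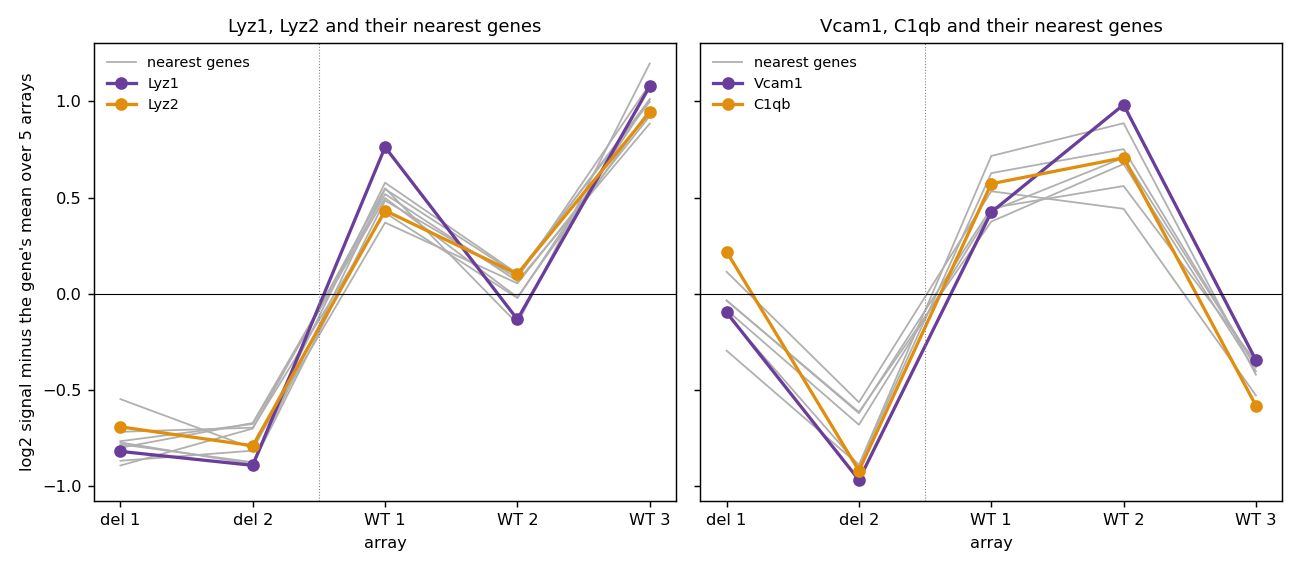
Log2 signal of each gene minus its mean over the 5 arrays (vertical axis) by array (horizontal axis, del for labelled Flvcr-deleted, WT for labelled wild-type), with members coloured and their 5 nearest genes in grey. Lyz1 and Lyz2 peak in wild-type replicate 3 and nearly coincide on the Flvcr-deleted-labelled arrays, whereas Vcam1 and C1qb drop in Flvcr-deleted replicate 2 and wild-type replicate 3.

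Of 22 further genes of island and tissue macrophages, 16 were tested, 2 were lower, none higher and 14 missed the threshold (median difference -0.17). The background was 17.5% of all genes lower and 21.8% higher. Fcna, the ficolin A of macrophages, read 8.66 and 7.59 on the Flvcr-deleted-labelled arrays, against 10.33, 10.06 and 9.07 on the wild-type-labelled arrays (difference -1.69, SE 0.39, limma, adjusted p = 0.00738). Dnase2a, which digests the DNA of engulfed nuclei, differed by -0.99 (SE 0.12, adjusted p = 2.11e-04). It read 7.65 and 7.52 on the Flvcr-deleted-labelled arrays, against 8.63, 8.40 and 8.69 on the wild-type-labelled arrays, without the low wild-type replicate 3 of Fcna, and as the mean of its kept probes it differed by -0.30. Those that did not pass include Axl (-0.83, adjusted p = 0.0835), Mrc1 (-0.64), the iron exporter Slc40a1 (-0.47, adjusted p = 0.0535), C1qc (-0.37), Apoe (-0.14), Hmox1 (-0.12) and Spic (0.00), the transcription factor of iron-recycling macrophages. Without Flvcr-deleted replicate 2 the differences were -0.44 for Axl, -0.34 for Mrc1, -0.20 for Slc40a1, -0.03 for C1qc and 0.25 for Apoe. Without wild-type replicate 3 they were -1.19 for Axl, -0.95 for Mrc1, -0.56 for Slc40a1 and -0.71 for C1qc, and these 4 then passed (limma, adjusted p = 0.00348, 0.00512, 0.0352 and 0.0222). Axl also passed without Flvcr-deleted replicate 1, with normexp and with an intensity trend, and its adjusted p ran from 4.97e-05 to 0.450 over all alternatives. Slc40a1 passed under the same 3 alternatives and with the floor on all 5 arrays, with a range of 0.00255 to 0.439. The ranges were 2.93e-04 to 0.539 for Mrc1 and 8.75e-04 to 0.962 for C1qc. Siglec1, Maf, Cd5l, Trem2, Cd36 and Marco were not above the floor on 2 arrays. The list's summed unlogged signal was 6002 and 4291 on the Flvcr-deleted-labelled arrays, against 8568, 8062 and 5866 on the wild-type-labelled arrays, so the lowest wild-type array lay below the higher of the other label. No background was subtracted from this sum or from the neutrophil sum below, and which cells gave the signal was not tested. Slc40a1, the brightest gene of the list, weighed most in the macrophage sum. It read 11.25 and 10.70 on the Flvcr-deleted-labelled arrays, against 11.62, 11.46 and 11.27 on the wild-type-labelled arrays. Without wild-type replicate 3, 6 genes of the list were lower, and without Flvcr-deleted replicate 1, 4 were.

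For monocytes, 11 of 15 genes with a probe were tested, 3 were lower, 1 higher and 7 did not pass (median -0.10). Beside these counts stand 17.5% of all genes lower and 21.8% higher. Ly6c1, of the Ly6C antigens, differed by -1.78 (SE 0.28, limma, adjusted p = 0.00105), F13a1, coagulation factor XIII subunit A, by -0.83 (SE 0.17, adjusted p = 0.00361) and the lysosomal reductase Ifi30 by -0.39 (SE 0.10, adjusted p = 0.0167), the last not passing without either array labelled Flvcr-deleted (0.0761 and 0.0875, range over all alternatives 0.00832 to 0.0875). The chemokine receptor Cx3cr1 lay under the floor on each wild-type array and read at least 1.08-fold higher under the label of deletion (adjusted p = 0.0324), a call lost whichever array was left out (adjusted p 0.0598 to 0.227, and 0.00390 to 0.227 over all alternatives). Cx3cr1 was above the floor on the 2 Flvcr-deleted-labelled arrays alone and so was tested only through the group where it is high. Ly6c1 read 8.29 and 7.12 on the Flvcr-deleted-labelled arrays, against 9.54, 9.62 and 9.32 on the wild-type-labelled arrays. Without Flvcr-deleted replicate 2 its difference was -1.20. Ccr2, Fn1, Ms4a6c and Ms4a6b, among them the receptor of inflammatory monocytes, were not above the floor on 2 arrays, and the named monocyte role of the group was measured by few genes.

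Genes shared by myeloid cells or lysosomes moved both ways, 3 of 16 tested being higher, 5 lower and 8 not called (median -0.12). Over all genes tested, 21.8% were higher and 17.5% lower. Cebpb, a myeloid transcription factor, rose by 1.47 (SE 0.13, limma, adjusted p = 4.91e-05). Laptm5 (0.48, SE 0.14) and cathepsin Z, Ctsz (0.46, SE 0.12), were also higher. Coro1a (-1.16, SE 0.11), the Fc receptor gamma chain Fcer1g (-1.11, SE 0.11), cathepsin B, Ctsb (-1.01, SE 0.11), prosaposin, Psap (-0.80, SE 0.18), and cathepsin H, Ctsh (-0.56, SE 0.17), were lower. Psap missed the threshold without Flvcr-deleted replicate 2 (adjusted p = 0.0573, range over all alternatives 2.18e-05 to 0.0573). Laptm5 missed it in 4 of the 5 fits without an array (all but wild-type replicate 2, range over all alternatives 0.00355 to 0.115), Ctsz without either array labelled Flvcr-deleted (0.00704 to 0.0951), and Ctsh without Flvcr-deleted replicate 2, where it differed by -0.32, without wild-type replicate 1 or with no filter (6.12e-04 to 0.241). The number higher was 1 without either array labelled Flvcr-deleted, and the number lower was 3 without Flvcr-deleted replicate 2. The common leukocyte antigen Ptprc and the integrin Itgam were not above the floor on 2 arrays.

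**Figure D5:**
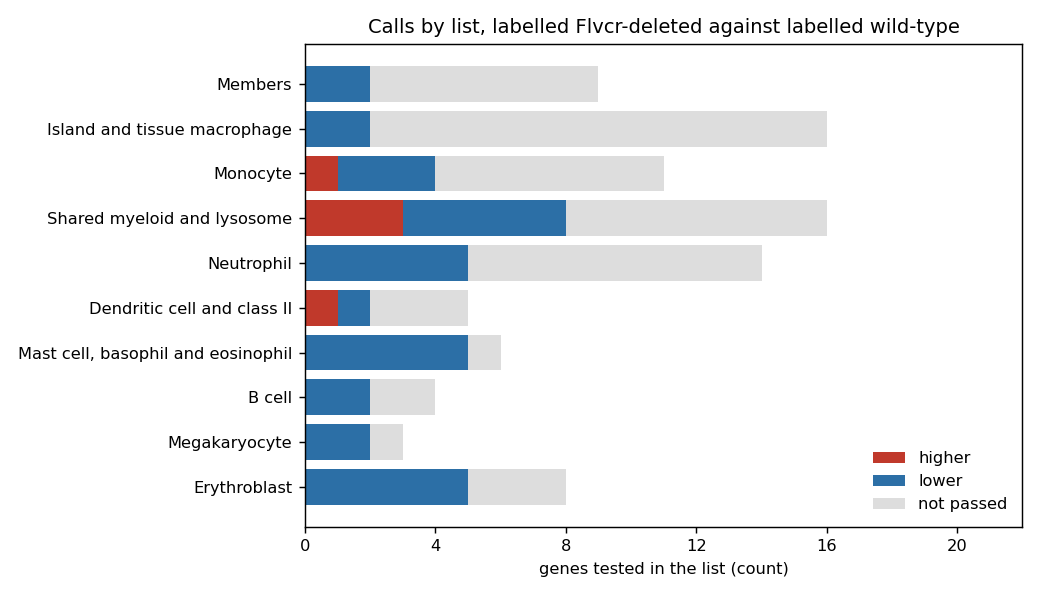
Number of genes tested (horizontal axis) in the member group and 9 further lists, divided into higher (red), lower (blue) and not passed (grey) at an adjusted p under 0.05 with limma. Members and macrophage genes have 2 lower each, and the neutrophil and the mast cell, basophil and eosinophil lists 5 lower each. Over all genes tested, 17.5% were lower and 21.8% higher.

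Neutrophils also make lysozyme. Of 15 neutrophil genes with a probe 14 were tested, 5 were lower, none higher and 9 missed the threshold (median -1.01), beside 17.5% of all genes lower and 21.8% higher. Without wild-type replicate 2, 10 were lower. The list's summed unlogged signal was 10811 and 6442 on the Flvcr-deleted-labelled arrays, against 31679, 36387 and 31996 on the wild-type-labelled arrays. Such a sum follows its brightest genes, and Mpo, at log2 13.69, 14.13 and 13.56, weighed most on the wild-type-labelled arrays. The early granule genes Mpo, Elane, Prtn3 and Ctsg differed by -2.50, -2.66, -2.99 and -2.65 and the granulocyte factor Cebpe by -0.97, the 5 that passed (limma). The first 4 did not share the order of the lysozymes: Flvcr-deleted replicate 2 minus replicate 1 was -2.09, -2.05, -2.17 and -1.85, and wild-type replicate 3 was below the mean of the other two. Without Flvcr-deleted replicate 2 the 4 differences were -1.46, -1.64, -1.90 and -1.73, all still past the threshold. The late neutrophil gene S100a9 read 7.41 and 9.04 on the Flvcr-deleted-labelled arrays, against 9.56, 7.84 and 10.41 on the wild-type-labelled arrays, with wild-type replicates in the order of the lysozymes but Flvcr-deleted replicate 2 above 1. S100a8, Camp, Ltf, Lcn2, Ngp and Retnlg had the same order within each label and did not pass, and S100a9 passed without wild-type replicate 2 (-1.76, limma, adjusted p = 0.0207, range over all alternatives 0.0207 to 0.862). The part of these cells in the lysozyme result was not tested.

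Of genes of mast cells, basophils and eosinophils, 5 of 6 tested were lower (median -0.93), against 17.5% of all genes, and 3 of them lay above the floor on all 5 arrays (Prg2, Prss34 and Cpa3). Mcpt8, also called, was above the floor on the 3 wild-type-labelled arrays alone and so was tested only through the group where it is high. With the floor required on all 5 arrays, 3 genes of this list were lower. For megakaryocytes 2 of 3 were lower (-1.03), Gp9 and Vwf, both above the floor throughout. The 2 of 4 B cell genes called lower (list median -0.45), Cd79b and Igll1, were above the floor on the 3 wild-type-labelled arrays alone and so were tested only through the group where they are high. With the floor required on all 5 arrays no B cell gene was called. No gene of these 3 lists was higher. For dendritic cells and class II genes, 1 of 5 was lower, Cd74 (-1.27, above the floor on 4 arrays), and 1 higher, H2-Ab1 (0.69, and 0.32 as the mean of its probes). Among all genes the shares were 17.5% lower and 21.8% higher.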

How the data were processed

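Per the labels' protocols, a QIAGEN kit gave the total RNA, an Ambion MessageAmp kit the biotinylated cRNA, and the arrays were Illumina bead arrays. The values the authors deposited were taken to be on a log2 scale, read from the values: every array ran from 6.35 to 15.06 with a median of 6.76, as quantile normalization gives, and no source used here names the software or log base. A table before normalization (10 columns, 5 of them detection p-values) was not used, because its column names match no sample's labels. Groups and replicate numbers came from titles and genotypes. No slide or batch is given, and precision is limited by how few arrays there are.

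Of 45281 probes, 34885 had 1 platform symbol, 18 several and 10378 none. The background floor lies 1.64 spreads (0.0823 each, taken from the values under the peak) above the most common signal, 6.70. Probes above it on at least 2 arrays were kept, 17729 in all, and a gene's brightest kept probe was used. Differences were fitted with limma 3.58.1 in R 4.3.3 (lmFit, eBayes, genotype the only term, two-sided, 3 residual and 5.64 prior degrees of freedom) and adjusted by Benjamini-Hochberg over all genes. The members and lists were chosen with earlier results of these data known. Named are all members, Flvcr1, the called genes of largest change in each list, list genes a sentence needs, and the 5 genes nearest to members ranging over more than 1 log2 unit. Alternatives were leaving out each array, the replicate number as a block, the floor on all 5 arrays or no filter, the mean of a gene's probes, normexp (offset 50), an intensity trend and median centring.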

Additional observations from a re-analysis of the deposited data

How the results depend on the processing

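Lyz1 and Lyz2 stayed lower and past the threshold under every alternative tried, and no member was called higher in any. The number of members called lower was 2 to 6 when an array was left out, 6 of them without wild-type replicate 3, and 6 with the replicate block. That block leaves wild-type replicate 3 alone in its block, so its differences equal those without that array. It also has fewer residual degrees of freedom than the main fit. The lowest adjusted p in the ranges of Vcam1, C1qa, C1qb, Mpeg1, Axl, Mrc1, C1qc, Slc40a1, Psap and Ctsh came from this block. Those low values thus rest on replicate numbers that are not known to pair samples. Only 2 replicate numbers are shared, and the labels do not say whether samples of the same number were handled together. Their deviations correlated over genes at -0.03 for replicate 1 and 0.10 for replicate 2. Those of Flvcr-deleted replicate 1 and wild-type replicate 3 correlated at 0.12. With 2 Flvcr-deleted arrays, the deviations of one mirror those of the other, so these values cannot settle whether samples were paired. In the macrophage list 2 to 6 genes were lower when an array was left out, 9 with the replicate block, 4 with normexp and 4 with an intensity trend. The monocyte gene called higher, Cx3cr1, was lost in each fit without an array (0 throughout), with the replicate block (0) and with the floor on all 5 arrays (0). In the myeloid and lysosome list 1 to 4 genes were higher and 3 to 7 lower when an array was left out, and 8 were lower with the replicate block. With an array left out, Adgre1 ran from -0.11 to 0.039 (positive without wild-type replicate 2) and Ctss from -0.11 to 0.037, the positive value without Flvcr-deleted replicate 1, none past the threshold. Apoe ran from -0.54 without Flvcr-deleted replicate 1 to 0.25 without replicate 2 and passed in no such fit. Over all genes, 1641 to 2119 were higher and 1357 to 1755 lower when an array was left out. The causes were not tested. Signals of Ctss, Csf1r and Adgre1 lie too near background for small changes to be seen.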
